A study of Mus musculus with 24 samples.

Results

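The chemokines Cxcl12, Cxcl14, Cxcl16 and Cx3cl1 and the CXCL12 receptors Ackr3 and Cxcr4 were examined in RNA-seq of 3T3 mouse embryonic fibroblasts (MEFs). These 6 genes were picked by name from the 55471 genes counted, and all 6 were among the 17522 genes that passed a filter on low counts. The cells were wild-type, Lkb1-/- or, as 2 separate clones named A1 and A2, Lkb1-/-/Crtc2-/-, and each was left untreated or given IL-1β, with 3 libraries in each of the 8 groups. The study asked whether the inflammatory gene program of cells without the kinase LKB1 (encoded by Stk11) depends on CRTC2, a coactivator of the transcription factor CREB that LKB1 holds in check through the salt-inducible kinases. IL-1β was given at 0.1 ng/mL, the concentration that the cell culture methods list for MEFs, and for 6 hours, as a legend states for the comparison of wild-type with Lkb1-/- MEFs. MEFs immortalized by the 3T3 protocol adapt to culture, and each double knockout is 1 CRISPR-edited clone of the Lkb1-/- MEFs. No source used here names more than 1 wild-type or 1 Lkb1-/- line, so line and genotype cannot be told apart. Nothing says that the libraries of a group came from separate cultures, so p-values measure only the spread between these libraries, which may be technical.

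CXCL12 is a constitutive chemokine of stromal fibroblasts that guides stem cells, leukocytes and tumor cells. It binds CXCR4, which signals through inhibitory G proteins, and ACKR3, an atypical receptor that recruits arrestins and takes CXCL12 up from the medium rather than activating G proteins. CXCL14 is another constitutive chemokine of epithelia and fibroblasts. CXCL16 and CX3CL1 are made as membrane proteins with the chemokine on a stalk, are released by the proteases ADAM10 and ADAM17, and are recognized by CXCR6 and CX3CR1.

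On GRCm38, the ligand genes are Cxcl12 (chr6:117168535-117181367, plus strand), Cxcl14 (chr13:56288643-56296551, minus strand), Cxcl16 (chr11:70453983-70459984, minus strand) and Cx3cl1 (chr8:94772009-94782427, plus strand). The receptor genes are Ackr3 (chr1:90203980-90216751, plus strand) and Cxcr4 (chr1:128588199-128592293, minus strand).

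Between 38842901 and 48594394 read pairs per library were assigned to genes. Stk11 fell from 86.0 ± 1.68 CPM (read pairs scaled by library size) in untreated wild-type MEFs to 17.3 ± 1.24 CPM in Lkb1-/- MEFs (SD, n = 3), and Crtc2 was at 81.1 ± 1.80 CPM in Lkb1-/- MEFs, 42.9 ± 2.11 CPM in clone A1 and 49.8 ± 0.864 CPM in clone A2. The summed level of 12 fibroblast markers was between 5879 and 10092 CPM in all libraries, while Thy1 had at most 3 counts and Lum at most 10 in any of them. The summed level of 8 endothelial markers stayed between 0.494 and 4.06 CPM, that of 8 epithelial markers between 0.207 and 1.15 CPM, and that of 10 hematopoietic markers between 11.9 and 26.6 CPM. Cdh5, Ptprc and Adgre1, markers of endothelial cells, leukocytes and macrophages that were chosen after their values were seen, had at most 1 count per library. Other listed markers were not near 0, among them Kdr with 10 to 151 counts, Cd68 with 103 to 309 and Cd14 with 224 to 856.

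In untreated cells, Cxcl12, Cxcl14, Ackr3 and Cxcr4 were higher in Lkb1-/- than in wild-type MEFs, and Cxcl16 and Cx3cl1 were not called. These were 4 of the 6 genes, with none lower, where 30.1% of all tested genes were called higher and 25.8% lower in this comparison (edgeR quasi-likelihood test, FDR under 0.05). Ackr3 and Cxcl14 passed the filter through the 6 groups without LKB1 and Cxcr4 through untreated clone A2 alone, so the count is a description and not an independent test. In bulk RNA, fewer cells that express a gene and less RNA per cell cannot be told apart.

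Cxcl12 stood at 1.88, 1.68 and 1.51 CPM in untreated wild-type MEFs. The matching Lkb1-/- values were 54.2, 80.8 and 64.1 CPM. The groups were far apart, with a 39.3-fold ratio of the means and a difference of 5.29 in log2 (SE 0.34, edgeR FDR = 1.69e-11). Cxcl14 had 0 counts in all 6 wild-type libraries, treated or not, and 33, 36 and 42 counts in the untreated Lkb1-/- libraries, or 0.861 ± 0.128 CPM (SD, n = 3). Taking 3 counts per library as the detection limit, Cxcl14 was at least 12.0-fold higher in Lkb1-/- MEFs (edgeR FDR = 9.74e-10).

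Ackr3 was close to absent in wild-type MEFs, where the untreated libraries had 0, 1 and 3 counts and the treated ones 1, 2 and 0. The Lkb1-/- libraries had 5222, 6401 and 7609 counts, or 118, 149 and 181 CPM. The ratio of the pooled counts was 4707 (95% exact interval 1838 to 17277, counting error only), and the log2 fold change was 12.08 (SE 1.75, edgeR FDR = 1.94e-13). Cxcr4, the signaling receptor, also had 0 counts in all 6 wild-type libraries but only 3, 7 and 3 counts in Lkb1-/- MEFs. That is 0.101 ± 0.0536 CPM (SD, n = 3), a mean 1.41-fold above the same limit (edgeR FDR = 0.00124). The libraries with 3 counts stood at that limit, so this ratio rests on the library with 7. In the same comparison Pdgfra and Dcn, markers of fibroblasts, went from 4.58 to 342 CPM and from 0.411 to 218 CPM, while the collagen gene Col1a2 went from 780.1 to 63.0 CPM. Of the 10 fibroblast markers tested, 4 were higher, 4 lower and 2 not called, beside the 30.1% and 25.8% of all tested genes. The summed endothelial markers lay between 0.553 and 0.835 CPM in untreated wild-type and between 2.88 and 3.42 CPM in untreated Lkb1-/- libraries, where Kdr was called higher and Erg, at 0 counts in wild-type, as well, and Cdh5 stayed at or near 0. Of the epithelial markers, the 2 that were tested, Grhl2 and Epcam, were higher, at 0.271 and 0.232 CPM in Lkb1-/- MEFs, and of the hematopoietic markers 1 of 4 was, Csf1r. Grhl2 and Epcam stood at 0.00869 and 0.0313 CPM in untreated wild-type MEFs. They and Erg passed the filter (0.236 CPM) through groups without LKB1, so these calls are a description and not an independent test. The part of these marker differences in the values of the chemokine genes was not tested.

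The membrane-bound chemokines, Cx3cl1 and Cxcl16, were not called. Cx3cl1 stood at 17.4, 22.6 and 24.8 CPM in wild-type and at 19.2, 18.5 and 19 CPM in Lkb1-/- MEFs. The groups overlapped, and the log2 fold change of −0.19 had a 95% interval from −0.54 to 0.16 (edgeR FDR = 0.355). Cxcl16 stood at 0.335, 0.714 and 0.782 CPM in wild-type and at 0.906, 1.02 and 1.12 CPM in Lkb1-/- MEFs, without overlap. Its log2 fold change of 0.74 (SE 0.33) was not called (edgeR FDR = 0.0626), and 5 of 15 alternatives called it, among them upper quartile normalization (0.82, edgeR FDR = 0.0245) and the fit without the third wild-type library (0.89, edgeR FDR = 0.0480). Cxcl16 overlaps Zmynd15 on the other strand, and the counts used are those of its own strand. With counts taken from both strands its log2 fold change was 0.23 (edgeR FDR = 0.476).

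The promoter windows of Cxcl12, Ackr3 and Cxcl14, which were raised together, are shown with that of Cx3cl1, which was not. Each runs from 250 bases before to 50 bases after the RefSeq gene start on GRCm38.p6, read along the gene's strand: Cxcl12 at chr6:117168285-117168584 on the plus strand, Ackr3 at chr1:90203730-90204029 on the plus strand, Cxcl14 at chr13:56296502-56296801 on the minus strand and Cx3cl1 at chr8:94771930-94772229 on the plus strand. Capitals mark matches on either strand to the GC box (GGGCGG), the TATA box (TATAAA) and the short CRE (TGACG), with overlapping matches merged.
Cxcl12: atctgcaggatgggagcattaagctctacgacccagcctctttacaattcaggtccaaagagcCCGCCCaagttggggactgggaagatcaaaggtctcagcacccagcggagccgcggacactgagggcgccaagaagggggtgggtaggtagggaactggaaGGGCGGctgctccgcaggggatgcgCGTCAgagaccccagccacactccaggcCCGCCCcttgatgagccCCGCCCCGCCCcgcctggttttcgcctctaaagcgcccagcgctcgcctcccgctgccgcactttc
Ackr3: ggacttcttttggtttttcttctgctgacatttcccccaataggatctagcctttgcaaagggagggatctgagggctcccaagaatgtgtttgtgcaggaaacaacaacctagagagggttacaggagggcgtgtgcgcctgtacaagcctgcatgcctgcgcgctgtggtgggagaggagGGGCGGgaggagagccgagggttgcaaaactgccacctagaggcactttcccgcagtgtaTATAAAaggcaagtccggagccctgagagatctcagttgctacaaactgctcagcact
Cxcl14: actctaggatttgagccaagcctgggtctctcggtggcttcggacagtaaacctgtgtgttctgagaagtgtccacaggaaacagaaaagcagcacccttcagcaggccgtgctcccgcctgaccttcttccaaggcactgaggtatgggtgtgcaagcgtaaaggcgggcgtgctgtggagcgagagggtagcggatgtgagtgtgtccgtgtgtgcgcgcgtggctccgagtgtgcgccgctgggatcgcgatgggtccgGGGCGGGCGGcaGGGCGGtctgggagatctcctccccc
Cx3cl1: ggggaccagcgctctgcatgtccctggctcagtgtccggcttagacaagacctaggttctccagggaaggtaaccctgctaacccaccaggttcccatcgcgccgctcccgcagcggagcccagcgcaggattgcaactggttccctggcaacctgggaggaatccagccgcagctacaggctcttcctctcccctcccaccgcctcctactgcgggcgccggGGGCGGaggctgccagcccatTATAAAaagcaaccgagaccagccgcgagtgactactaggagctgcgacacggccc

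Of 32851 RefSeq promoter windows of the same length, 35.7% held a GC box, 13.6% a TATA box and 20.8% a short CRE. RefSeq gave a window for 5 of the 6 genes, Cxcr4 included and Cxcl16 not, and all 5 held a GC box. A TATA box was present for Ackr3, Cxcr4 and Cx3cl1, beginning 8, 30 and 6 bases before the RefSeq start respectively on the gene's strand, and a short CRE for Cxcl12 alone, beginning 61 bases before the start on the opposite strand. The full CRE (TGACGTCA), the AP-1 site (TGANTCA) and the κB consensus of NF-κB were not found in the 5 windows and are present in 1.79%, 7.81% and 8.46% of all windows. These matches are a description of the letters and not of binding.

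**Figure D1:**
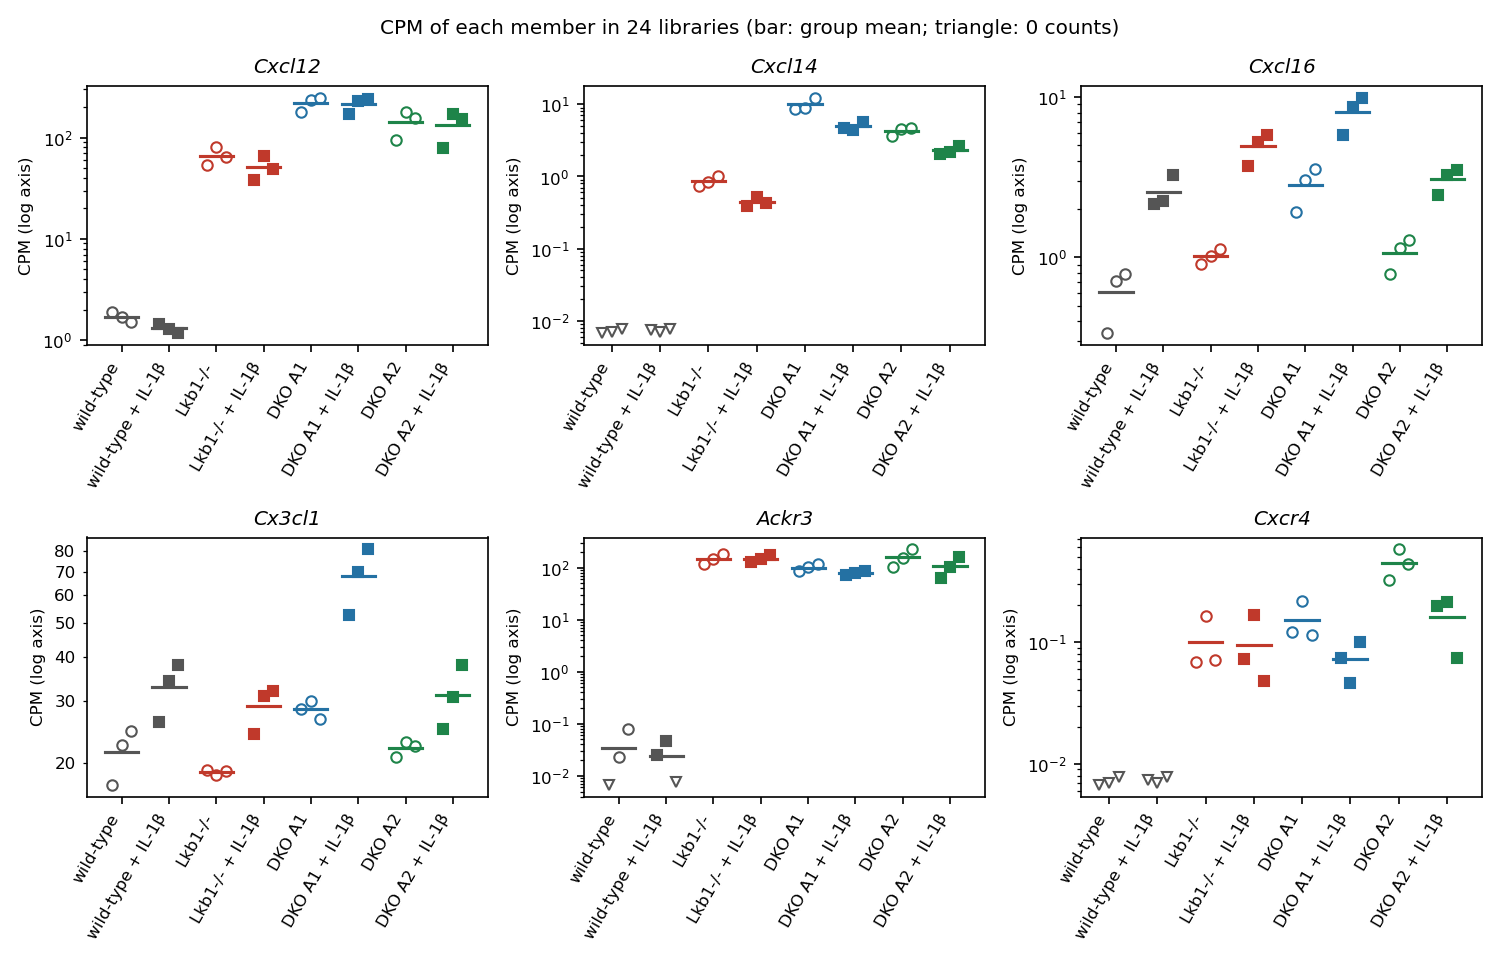
Level of each gene in CPM (log axis) in the 24 libraries, by genotype and treatment, where DKO A1 and A2 are the Lkb1-/-/Crtc2-/- clones, open circles are untreated and filled squares IL-1β libraries, bars are group means and triangles near the lower edge mark 0 counts. Cxcl12, Cxcl14, Ackr3 and Cxcr4 lie apart from wild-type in every group without LKB1, while Cx3cl1 overlaps between wild-type and Lkb1-/- MEFs at either treatment, and both Cx3cl1 and Cxcl16 lie higher with IL-1β than without in each genotype. Cxcr4 has 2 to 25 counts in the groups without LKB1 against 0 in wild-type, in part at or below the limit of 3 counts.

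With IL-1β, 5 of the 6 genes were higher in Lkb1-/- than in wild-type MEFs, where 30.2% of all tested genes were called higher and 27.1% lower. Cxcl12, Cxcl14, Ackr3 and Cxcr4 were again called, Cxcr4 at 3, 8 and 2 counts in treated Lkb1-/- MEFs, near the detection limit. Cxcl16 was called as well, although the difference between its IL-1β responses in the 2 genotypes (0.21 in log2) was not called. Cxcl16 stood at 2.15, 2.24 and 3.26 CPM in treated wild-type and at 3.72, 5.21 and 5.81 CPM in treated Lkb1-/- MEFs, a difference of 0.95 in log2 (SE 0.27, edgeR FDR = 0.00525). Cx3cl1 had a log2 fold change of −0.18 with a 95% interval from −0.52 to 0.17 (edgeR FDR = 0.386).

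To compare levels between genes, CPM were divided by the length of the annotated exons in kilobases (RPKM). In untreated wild-type MEFs Cx3cl1 was the most abundant of the 6 genes, at 5.49 ± 0.967 RPKM, above Cxcl12 at 0.207 ± 0.0222 and Cxcl16 at 0.202 ± 0.0798, which overlapped each other. In untreated Lkb1-/- MEFs the order was Ackr3 at 44.6 ± 9.40 RPKM, Cxcl12 at 8.12 ± 1.64 and Cx3cl1 at 4.81 ± 0.0860, followed by Cxcl14, Cxcl16 and Cxcr4, and no neighbors in that order overlapped. Ackr3 was thus the most abundant of the CXCL12 receptors by RPKM, with Cxcr4 at 0.0556 ± 0.0296 RPKM. In untreated clone A1, Cxcl12 reached 27.0 ± 4.66 RPKM and overlapped Ackr3 at 29.9 ± 4.64. In untreated clone A2, Ackr3 at 47.7 ± 18.4 RPKM stayed above Cxcl12 at 17.5 ± 5.25 without overlap. All values are means ± SD over 3 libraries.

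**Figure D2:**
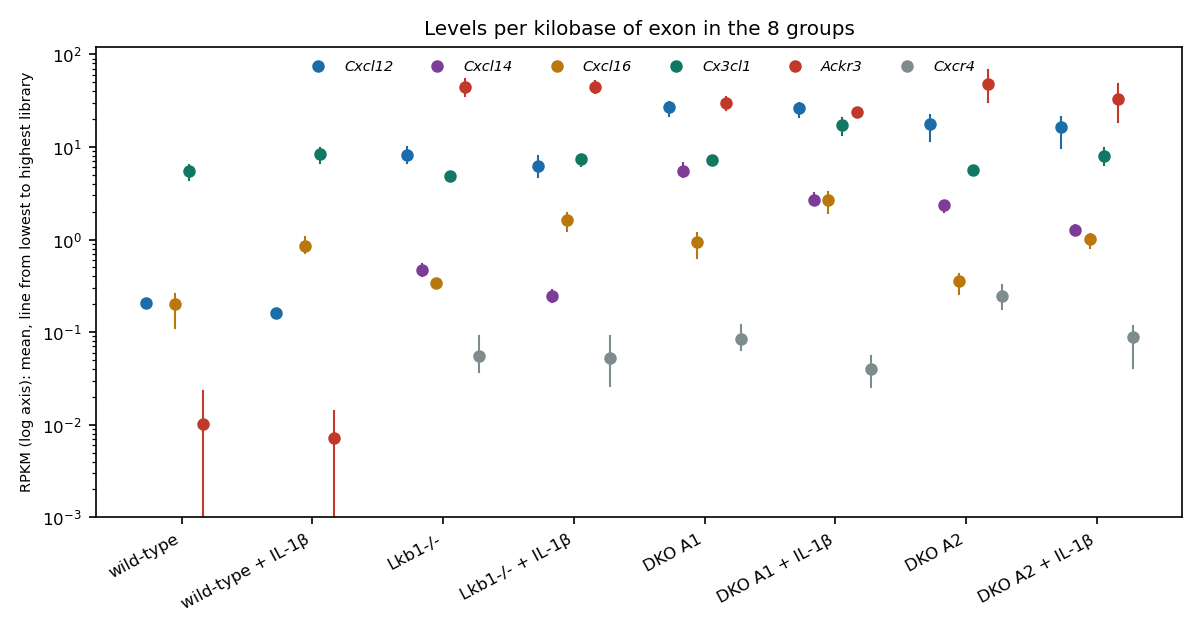
Level of each gene per kilobase of exon (RPKM, log axis) in the 8 groups, as the mean of 3 libraries with a line from the lowest to the highest; lines that meet the lower edge run to 0, and genes with 0 counts in a group are not drawn. Ackr3 ranks first or second in all groups without LKB1 and Cxcl12 rises with it from at most 0.229 RPKM in untreated wild-type libraries, while Cxcr4 stays at or below 0.320 RPKM.

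The double-knockout clones were next compared with Lkb1-/- MEFs, to ask which levels changed when CRTC2 was lost as well. Both comparisons share the Lkb1-/- libraries. In untreated clone A1, Cxcl12, Cxcl14, Cxcl16 and Cx3cl1 were higher, which is 4 of 6 genes with none lower, where 18.9% of all tested genes were called higher and 16.4% lower. In untreated clone A2, Cxcl12, Cxcl14 and Cxcr4 were higher, 3 of 6 with none lower, where 17.1% were called higher and 15.1% lower. Cxcr4 passed the filter through these same A2 libraries, so its place in the count is a description and not a test. None of the 4 genes raised in untreated Lkb1-/- MEFs was called lower in either untreated clone in the fit of all groups, while 3 of 14 alternatives called Ackr3 lower in A1.

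Cell type markers were read in the same comparisons, where the shares of all tested genes were 18.9% higher and 16.4% lower in A1 and 17.1% and 15.1% in A2. The summed fibroblast markers were at 9194 to 10092 CPM in A1, 6278 to 8539 CPM in A2 and 6969 to 7934 CPM in Lkb1-/- libraries. Of the 10 fibroblast markers tested, 3 were higher and 1 lower in A1, and 1 was higher and 2 lower in A2. Dcn was lower in both clones, at 28.6 CPM in A1 (log2 −2.93, edgeR FDR = 2.32e-07) and 22.5 CPM in A2 (−3.28, edgeR FDR = 9.73e-08), against 218 CPM in Lkb1-/- MEFs. The summed hematopoietic markers overlapped, at 14.1 to 17.2 CPM in A1, 11.9 to 14.7 CPM in A2 and 13.1 to 15.6 CPM in Lkb1-/- libraries, and of the 4 tested, 2 were higher in A1, and 2 were higher and 1 lower in A2. The higher ones were Cd68, at 5.01 CPM in A1 and 5.37 CPM in A2 against 3.38 CPM in Lkb1-/- MEFs (edgeR FDR = 0.0367 and 0.0161), and Lyz2, at 0.362 and 0.0646 CPM against 0 counts (edgeR FDR = 0.000102 and 0.0198). Untreated A1 was the only group where the mean of Lyz2 lay above the filter on low counts (0.236 CPM), so its call there is a description and not a test. In A2 its mean lay below the limit of 3 counts per library (0.0653 CPM), although it was called. Of 3 endothelial and 2 epithelial markers tested, 1 endothelial marker was lower in A1 and none was called in A2. The part of these markers in the values of the chemokine genes was not tested.

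Cxcl12 stood at 177, 238 and 247 CPM in untreated clone A1 and at 95.3, 179 and 155 CPM in clone A2. All 6 values lay above the Lkb1-/- libraries, by 1.73 on the log2 scale for A1 (SE 0.25, edgeR FDR = 2.04e-05) and by 1.11 for A2 (SE 0.25, edgeR FDR = 0.00192). Cxcl14 stood at 8.68, 9.03 and 12.3 CPM in clone A1 and at 3.61, 4.56 and 4.67 CPM in clone A2. This was the widest change among the 6 genes in A1, 11.6-fold (log2 3.54, SE 0.19, edgeR FDR = 1.29e-09), and it was 4.97-fold in A2 (log2 2.31, SE 0.20, edgeR FDR = 1.83e-07).

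Cxcl16 was higher in clone A1 alone, with 1.93, 3.02 and 3.54 CPM in untreated A1 and 0.786, 1.13 and 1.28 CPM in A2. Its log2 fold change from Lkb1-/- MEFs was 1.48 in A1 (SE 0.29, edgeR FDR = 0.000478) and 0.07 in A2 (95% interval −0.58 to 0.71, edgeR FDR = 0.901). Cx3cl1 stood at 28.5, 30.0 and 26.8 CPM in A1 and at 20.8, 23.0 and 22.4 CPM in A2, and neither clone overlapped the Lkb1-/- libraries. The log2 fold change was 0.59 in A1 (SE 0.17, edgeR FDR = 0.00842) and 0.23 in A2 (95% interval −0.12 to 0.57, edgeR FDR = 0.336).

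Of the receptors, Cxcr4 was called in clone A2 and Ackr3 in neither clone. Ackr3 stood at 84.6, 100.3 and 116 CPM in untreated A1, below the Lkb1-/- libraries, and at 102, 153 and 224 CPM in A2, which overlapped them. Its log2 fold change was −0.58 in A1 (95% interval −1.13 to −0.03, edgeR FDR = 0.0999) and 0.10 in A2 (edgeR FDR = 0.823). Ackr3 was called lower in A1 with only the compared groups in the fit (−0.61, edgeR FDR = 0.00936). It was also called without a filter on low counts (−0.59, edgeR FDR = 5.42e-11), where the value hardly moved while the FDR fell. With the replicate number as a block over all 24 libraries it was called as well (−0.56, edgeR FDR = 0.00104), although the pairing did not hold for this comparison (correlations from 0.0560). The shares of all tested genes called in these fits are not given. Cxcr4 had 5, 9 and 5 counts in untreated A1 and 16, 25 and 20 counts in A2, against 3, 7 and 3 in Lkb1-/- MEFs. Only A2 was called, with a difference of 2.11 in log2 (SE 0.52, edgeR FDR = 0.00309), at 0.447 ± 0.128 CPM (SD, n = 3). Since untreated A2 alone took Cxcr4 past the filter, a gene high in this group was selected for the test; without a filter on low counts the difference was 2.09 (edgeR FDR = 0.00904).

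With IL-1β, clone A1 had 4 genes higher and 1 lower than Lkb1-/- MEFs, where 19.4% of all tested genes were called higher and 17.3% lower. The lower gene was Ackr3, with 73.4, 78.2 and 86.5 CPM in A1 and 129, 145 and 173 CPM in Lkb1-/- MEFs, without overlap, and a difference of −0.91 in log2 (SE 0.26, edgeR FDR = 0.0105). Cxcl12 (2.07), Cxcl14 (3.46), Cx3cl1 (1.22) and Cxcl16 (0.72) were higher by these log2 fold changes. For Cxcl16, whose groups overlapped, the call was lost without the first or second treated Lkb1-/- library (0.56 and 0.77, edgeR FDR = 0.150 and 0.0667) and without the second or the third treated A1 library (0.67 and 0.58, edgeR FDR = 0.10 and 0.129). Clone A2 with IL-1β had 2 genes higher, Cxcl12 (1.39) and Cxcl14 (2.35), where 17.1% were called higher and 15.8% lower. Same-numbered libraries moved together in this comparison, and with the replicate number as a block Ackr3 (−0.52, edgeR FDR = 0.00224) and Cxcl16 (−0.67, edgeR FDR = 0.000134) were also called, as lower in A2, where 46.6% of all tested genes were called; without the block they were at −0.45 (edgeR FDR = 0.210) and −0.68 (edgeR FDR = 0.0594). Ackr3 ranged from −0.15 without the first treated A2 library (edgeR FDR = 0.673) to −0.85 without the third (edgeR FDR = 0.0116), and without the first treated Lkb1-/- library Cxcl16 was at −0.84 (edgeR FDR = 0.0316).

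**Figure D3:**
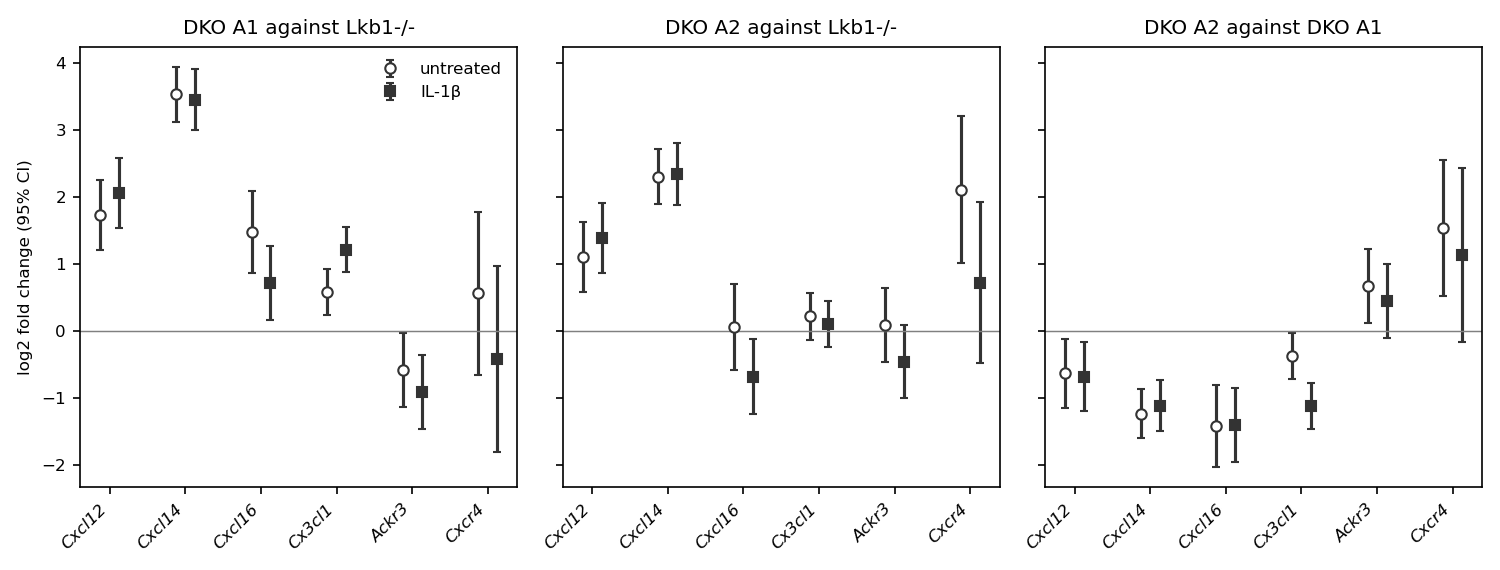
Log2 fold change with its 95% interval for each gene in clone A1 against Lkb1-/- MEFs, clone A2 against Lkb1-/- MEFs and clone A2 against clone A1, untreated (open circles) or with IL-1β (filled squares), 3 libraries per group. Cxcl12 and Cxcl14 lie above 0 in both clones against Lkb1-/- MEFs, Cxcl16 and Cx3cl1 in A1 alone among the called values, and Cxcl14 and Cxcl16 lie below 0 in A2 against A1.

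The clones also differed from each other. In untreated cells, Cxcl14 (log2 fold change −1.23, edgeR FDR = 4.15e-05) and Cxcl16 (−1.41, edgeR FDR = 0.000779) were lower in A2 than in A1 and Cxcr4 was higher (1.54, edgeR FDR = 0.0166), where 15.8% of all tested genes were called higher and 16.7% lower. Cxcr4 passed the filter only through untreated A2, the higher group here. Its call was lost without the first or the third A1 library (1.42 and 1.38, edgeR FDR = 0.0665 and 0.0707) or the second A2 library (1.32, edgeR FDR = 0.0713), and without a filter on low counts (1.53, edgeR FDR = 0.0688). Cxcl12 was at −0.63 (edgeR FDR = 0.0597) and was called without the first A1 library (−0.76, edgeR FDR = 0.0423) or the second A2 library (−0.82, edgeR FDR = 0.0283), while without the first A2 library it was −0.41 (edgeR FDR = 0.221). Ackr3 was at 0.67 (edgeR FDR = 0.0574), 0.91 without the first A2 library (edgeR FDR = 0.00744) and 0.36 without the third (edgeR FDR = 0.329). With IL-1β, Cxcl12 (−0.68, edgeR FDR = 0.0444), Cxcl14 (−1.11), Cxcl16 (−1.40) and Cx3cl1 (−1.12) were lower in A2, where 15.6% were called lower and 15.1% higher. The Cxcl12 call was lost without the first A2 library (−0.41, edgeR FDR = 0.185) or the second or the third A1 library (−0.63 and −0.58, edgeR FDR = 0.120 and 0.126), with counts from both strands (edgeR FDR = 0.0537) and with only the compared groups in the fit (edgeR FDR = 0.0744). Ackr3 was at 0.46 (edgeR FDR = 0.213), was called with the replicate block (0.38, edgeR FDR = 0.0250), where 44.4% of all tested genes were called, and ranged from 0.0567 without the third A2 library (edgeR FDR = 0.899) to 0.74 without the first (edgeR FDR = 0.0198).

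Against wild-type MEFs, all 6 genes were higher in clone A1, untreated and with IL-1β, where 30.3% and 30.1% of all tested genes were called higher and 25.1% and 26.9% lower. In clone A2, 5 genes were higher untreated and 4 with IL-1β, where 32.7% and 32% were called higher and 27.9% and 28.8% lower. Cxcr4 was among these genes, with 0 counts in wild-type libraries, and by the limit of 3 counts per library its mean was at least 2.11-fold higher in untreated A1, at least 6.26-fold in untreated A2 and at least 2.19-fold in treated A2. In the third treated A2 library, with 3 counts, Cxcr4 stood at that limit. In treated A1, with 3, 2 and 4 counts, its bound was 0.990-fold, so it was not above the limit although called (edgeR FDR = 0.00436). Relative to wild-type, Cxcl12 was 131-fold higher in untreated A1 and 84.6-fold higher in A2, and Cxcl14 was at least 140.1-fold and at least 59.9-fold higher. For Ackr3, the ratio of the pooled counts was 3179 in A1 (95% exact interval 1241 to 11671) and 5001 in A2 (1953 to 18356). The weakest of these calls were Cx3cl1 in untreated A1 (0.40, edgeR FDR = 0.0475) and Cxcl16 in untreated A2 (0.81, edgeR FDR = 0.0384). Leaving out any 1 of the 6 libraries behind the Cx3cl1 call except the third wild-type library ended it, with values from 0.26 without the first wild-type library to 0.44 without the third A1 library, and so did counts from both strands (0.35, edgeR FDR = 0.0987), median-of-ratios size factors (0.39, edgeR FDR = 0.0562) and the DESeq2 Wald test (0.39, adjusted p = 0.0576). The Cxcl16 call was lost without the first wild-type library (0.50, edgeR FDR = 0.212) or the second or the third A2 library (0.72 and 0.63, edgeR FDR = 0.0960 and 0.146), with counts from both strands (0.47, edgeR FDR = 0.112), with the newer quasi-likelihood method (0.81, edgeR FDR = 0.104) and with only the compared groups in the fit (0.80, edgeR FDR = 0.0885).

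With IL-1β, Cxcl16 was higher in all 4 genotypes and Cxcl14 was lower in the 3 genotypes that expressed it. Cx3cl1 was called higher in Lkb1-/- MEFs and clone A1, although its log2 fold change was alike in wild-type (0.61) and Lkb1-/- MEFs (0.62). Libraries of the same number moved together between the untreated and treated groups of every genotype, so the numbered pairs are given beside the fits, and a fit blocked by library number inside each genotype is given where it changed a call. That fit called 16.1% of all tested genes with IL-1β in wild-type MEFs, 22.6% in Lkb1-/- MEFs, 16.3% in A1 and 26% in A2. The first library had the lowest CPM of the 3 in all 6 groups without LKB1 for Cxcl12, Ackr3 and Cxcl16, and no label says what the number marks. Cxcl16 was called higher in all 4 genotypes, where 1.53% of all tested genes were called higher with IL-1β in wild-type MEFs, 2.65% in Lkb1-/- MEFs, 1.2% in clone A1 and 2.81% in clone A2. The treated libraries of clone A1 had 5.79, 8.66 and 9.89 CPM and those of clone A2 2.45, 3.27 and 3.50 CPM. The log2 fold changes were 2.07 in wild-type (SE 0.32, edgeR FDR = 0.000373), 2.27 in Lkb1-/- (SE 0.29, edgeR FDR = 3.03e-05), 1.52 in A1 (SE 0.27, edgeR FDR = 0.00236) and 1.53 in A2 (SE 0.29, edgeR FDR = 0.00199). With counts from both strands the wild-type value was 1.36 (edgeR FDR = 0.00197). In each of the 12 numbered pairs Cxcl16 was higher with IL-1β, by 2.74-fold to 6.41-fold, where between 19.9% and 24.8% of all tested genes were higher in the 3 pairs of a genotype. The summed hematopoietic markers also lay higher with IL-1β, without overlap in wild-type MEFs (20.1 to 26.6 CPM against 11.9 to 14.4 CPM), Lkb1-/- MEFs (16.9 to 21.4 against 13.1 to 15.6) and A2 (15.7 to 17.6 against 11.9 to 14.7), and with overlap in A1 (16.4 to 19.8 against 14.1 to 17.2). Of the 4 tested, 1 was called in each of wild-type, Lkb1-/- and A2 and 0 in A1. Cd14 went from 9.89 to 18.5 CPM in wild-type (edgeR FDR = 0.000308) and from 8.93 to 14.0 CPM in Lkb1-/- MEFs (edgeR FDR = 0.00462). Ptprc and Adgre1, chosen after their values were seen, stayed at or near 0, while Cd68 had 103 to 309 counts per library. The part of these markers in the result was not tested.

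Cx3cl1 stood with IL-1β at 26.2, 34.3 and 38.0 CPM in wild-type MEFs, 24.3, 31.1 and 32.0 CPM in Lkb1-/- MEFs, 52.6, 69.8 and 81.0 CPM in A1 and 25.1, 30.8 and 37.9 CPM in A2. Treated and untreated libraries did not overlap in any genotype, and all 12 numbered pairs were higher with IL-1β, where 19.9% to 24.8% of all tested genes were higher in all 3 pairs of a genotype. It was called in Lkb1-/- MEFs (log2 0.62, SE 0.17, edgeR FDR = 0.0317) and in clone A1 (1.25, SE 0.16, edgeR FDR = 8.55e-05). It was not called in wild-type MEFs (0.61, edgeR FDR = 0.0622) or clone A2 (0.50, edgeR FDR = 0.0882), where 7 of 16 alternatives each called it, including the replicate block within genotype (0.61 and 0.49, edgeR FDR = 0.000143 and 0.000693), upper quartile normalization (edgeR FDR = 0.0227 and 0.0387) and the DESeq2 Wald test (adjusted p = 0.0261 and 0.0405). The Lkb1-/- call was lost without any 1 of the 3 untreated libraries (0.64, 0.61 and 0.62, edgeR FDR = 0.0605, 0.118 and 0.0914) and without the second or the third treated library (0.57 and 0.57, edgeR FDR = 0.127 and 0.105), while Cx3cl1 was called without the first treated library of wild-type (0.75, edgeR FDR = 0.0251) or of A2 (0.64, edgeR FDR = 0.0250).

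Cxcl14 fell in all 3 genotypes that expressed it, where 2.09% of all tested genes were called lower with IL-1β in Lkb1-/- MEFs, 0.731% in wild-type, 0.788% in A1 and 2.86% in A2. The treated libraries had 16, 25 and 18 counts in Lkb1-/-, 192, 190 and 230 in A1 and 94, 103 and 107 in A2, against untreated libraries with 356, 376 and 536 counts in A1 and 179, 197 and 212 in A2. No treated group overlapped its untreated group, and the log2 fold changes were −0.94 in Lkb1-/- (SE 0.23, edgeR FDR = 0.0214), −1.02 in A1 (SE 0.17, edgeR FDR = 0.00314) and −0.90 in A2 (SE 0.18, edgeR FDR = 0.00528). The 9 numbered pairs had ratios of treated to untreated CPM from 0.432 to 0.622. The Lkb1-/- call was lost without the first or the third treated library (−0.84 and −0.90, edgeR FDR = 0.104 and 0.0686) or the second or the third untreated library (−0.96 and −0.82, edgeR FDR = 0.0593 and 0.0920) and with the newer quasi-likelihood method (edgeR FDR = 0.163), and with only the compared groups in the fit neither Lkb1-/- (edgeR FDR = 0.0946) nor A2 (edgeR FDR = 0.0653) was called.

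**Figure D4:**
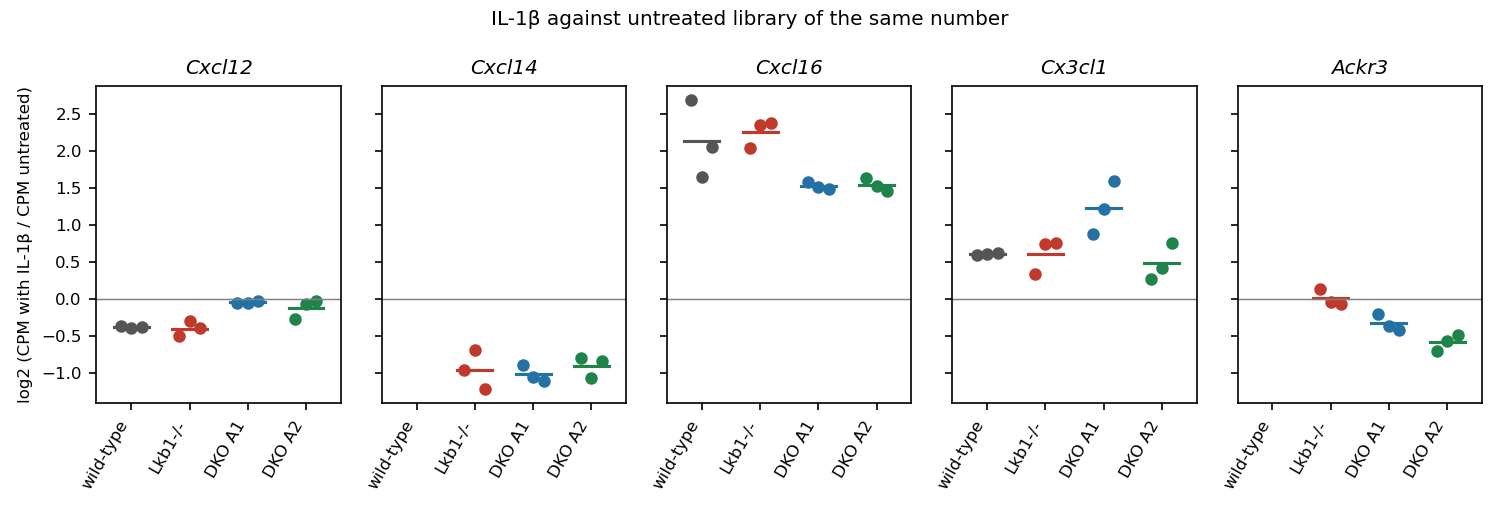
Log2 ratio of CPM with IL-1β to CPM untreated for libraries of the same number, 3 pairs per genotype, with bars at the mean; Cxcl14 and Ackr3 are not drawn in wild-type MEFs, where their counts were 0 to 3. Cxcl16 and Cx3cl1 lie above 0 in all 12 pairs, Cxcl14 below 0 in all 9, Cxcl12 below 0 in all 12 with ratios nearest to 1 in clone A1, and Ackr3 below 0 in the 6 pairs of the clones.

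In the unblocked fit of all groups, Cxcl12 and its receptors were not called with IL-1β in any genotype. Cxcl12 stood with IL-1β at 1.46, 1.28 and 1.16 CPM in wild-type MEFs, 38.3, 65.6 and 49.0 CPM in Lkb1-/- MEFs, 171, 229 and 243 CPM in A1 and 78.9, 171 and 152 CPM in A2. It was lower in all 12 numbered pairs, with ratios of 0.764 to 0.776 in wild-type, 0.706 to 0.812 in Lkb1-/-, 0.963 to 0.981 in A1 and 0.828 to 0.980 in A2. Of all tested genes, between 23.9% and 28.7% were lower in all 3 pairs of a genotype. With the replicate block within genotype, Cxcl12 was called lower in Lkb1-/- MEFs (−0.39, edgeR FDR = 9.87e-07) and A2 (−0.12, edgeR FDR = 0.0476) but not in wild-type (−0.38, edgeR FDR = 0.0947) or A1 (−0.04, edgeR FDR = 0.564). Without the block, the Lkb1-/- value was −0.38 (SE 0.25, edgeR FDR = 0.553), and without a filter on low counts it was −0.37 and called (edgeR FDR = 0.000461). It moved from −0.21 without the first treated or the second untreated library to −0.60 without the second treated library, uncalled in each.

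Ackr3 did not move in one direction in Lkb1-/- MEFs, where the 3 pairs had ratios from 0.954 to 1.09. In the clones it was lower in all 6 pairs, with ratios of 0.748 to 0.868 in A1 and 0.614 to 0.717 in A2, and treated A2 libraries at 62.4, 104 and 161 CPM. The log2 fold change was −0.34 in A1 (edgeR FDR = 0.763) and −0.55 in A2 (edgeR FDR = 0.284), and with the replicate block both were called (−0.33 and −0.58, edgeR FDR = 0.000121 and 2.08e-08). The unblocked value in A2 was −0.27 without the first treated library (edgeR FDR = 0.669), −0.23 without the third untreated library (edgeR FDR = 0.833) and −0.91 without the third treated library (edgeR FDR = 0.0350), and without a filter on low counts both clones were called (−0.31 in A1 and −0.53 in A2, edgeR FDR = 0.0105 and 1.29e-08). Cxcr4 had 9, 10 and 3 counts in treated A2, below all 3 untreated A2 libraries, a difference of −1.43 in log2 (SE 0.47, edgeR FDR = 0.0835) that was called with the replicate block (−1.44, edgeR FDR = 0.0210) without the first untreated A2 library (−1.60, edgeR FDR = 0.0495) and with the newer quasi-likelihood method (−1.40, edgeR FDR = 0.0244). Untreated A2, the higher group, alone took Cxcr4 past the filter, and without a filter on low counts the difference was not called (−1.41, edgeR FDR = 0.240). In A1, Cxcr4 went from 5, 9 and 5 to 3, 2 and 4 counts (edgeR FDR = 0.615), which is at or near the detection limit.

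Whether the response to IL-1β differed between genotypes was tested as a difference of the log2 fold changes. By edgeR, 0 of the 6 genes were called in Lkb1-/- against wild-type MEFs, in clone A1 against Lkb1-/- MEFs or in clone A2 against Lkb1-/- MEFs, where 0.245%, 0.0285% and 0% of all tested genes were. At an unadjusted p under 0.05 there was 1 gene, Cx3cl1 in A1 against Lkb1-/- MEFs (difference 0.63, 95% interval 0.14 to 1.12, edgeR FDR = 1), and DESeq2 called 0 in each. Without a filter on low counts, Cx3cl1 in A1 (0.64, edgeR FDR = 0.00296) and Ackr3 in A2 (−0.54, edgeR FDR = 0.00387) were called against Lkb1-/- MEFs. With the replicate block within genotype, 1.52% of all tested genes were called in A1 and 1.04% in A2 against Lkb1-/- MEFs. Of the 6 genes, 3 were called in A1: Cx3cl1 (0.62, edgeR FDR = 0.0194), Cxcl12 (0.35, edgeR FDR = 0.00328) and Ackr3 (−0.34, edgeR FDR = 0.0193). In A2 against Lkb1-/- MEFs, Cxcl12 (0.28, edgeR FDR = 0.0319) and Ackr3 (−0.59, edgeR FDR = 9.30e-05) were. The response of Cxcl14 differed from that in Lkb1-/- MEFs by −0.08 in A1 (95% interval −0.69 to 0.53) and 0.04 in A2 (95% interval −0.58 to 0.66).

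The partners of these 6 genes were read from lists of chemokines, receptors, proteases and signaling genes. Of 15 receptors of homeostatic chemokines and atypical receptors, 2 passed the filter, and they were the receptors of CXCL16 and CX3CL1. Cxcr6 had between 1 and 37 counts per library and fell with IL-1β in Lkb1-/- MEFs, from 0.410 to 0.0885 CPM (log2 −2.14, SE 0.61, edgeR FDR = 0.0289). With IL-1β 1 of these receptors was called lower in A2 as well, 0 in wild-type MEFs and 0 in A1, where 2.86%, 0.731% and 0.788% of all tested genes were called lower (2.09% in Lkb1-/- MEFs), and Cxcr6 stood untreated and treated at 0.715 and 0.234 CPM in A2, 0.709 and 0.366 CPM in wild-type MEFs and 0.203 and 0.152 CPM in A1. Cx3cr1 had between 1 and 17 counts and was higher in untreated Lkb1-/- than wild-type MEFs, at 0.169 and 0.0468 CPM (log2 1.78, SE 0.62, edgeR FDR = 0.0105). Its mean lay above the filter on low counts (0.236 CPM) only in groups without LKB1, so this call is a description and not an independent test. The wild-type mean lay below the limit of 3 counts per library (0.0714 CPM). Of the 12 other homeostatic chemokines, 4 passed the filter, and in untreated Lkb1-/- against wild-type MEFs 2 were higher (30.1% of all tested genes were), Ccl27a (1.62, edgeR FDR = 2.23e-06) and Ccl25 (0.52, edgeR FDR = 0.0434). Ccl28, a mucosal chemokine, was at 0.808 CPM in Lkb1-/- MEFs and 0.208 CPM in clone A1 (log2 −1.95, edgeR FDR = 0.000227), and had 0 counts in the 3 untreated libraries of clone A2.

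Among 10 proteases that cut chemokines or shed CXCL16 and CX3CL1, 6 were tested, and in untreated Lkb1-/- against wild-type MEFs 2 were higher and 1 lower, where 30.1% of all tested genes were higher and 25.8% lower. Mmp2, a gelatinase that trims CXCL12, went from 0.0957 CPM in wild-type to 469 CPM in Lkb1-/- MEFs (edgeR FDR = 3.77e-14), and was lower in both clones, at 161 CPM in A1 (log2 −1.54, edgeR FDR = 0.000160) and 167 CPM in A2 (−1.49, edgeR FDR = 0.000289). Mmp9, the other gelatinase, rose with IL-1β in wild-type (log2 1.94, edgeR FDR = 0.0118) and Lkb1-/- MEFs (1.90, edgeR FDR = 4.16e-06). Adam10, the sheddase of CX3CL1 and CXCL16, was lower in untreated Lkb1-/- MEFs, from 368 to 258 CPM (log2 −0.51, SE 0.11, edgeR FDR = 0.000571). The median log2 fold change of the 6 tested proteases was 0.17, where that of all tested genes was 0.04.

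Of 13 genes for arrestins, G protein-coupled receptor kinases and receptor sorting, 12 were tested, and 6 were higher and 2 lower in untreated Lkb1-/- against wild-type MEFs, beside the same 30.1% and 25.8% of all tested genes. Their median was 0.13 on the log2 scale. Arrb1, which encodes β-arrestin 1, went from 37.5 CPM in wild-type to 111 CPM in Lkb1-/- MEFs (log2 1.57, SE 0.15, edgeR FDR = 2.32e-08) and at 50.7 CPM in clone A1 (log2 −1.13 from Lkb1-/-, edgeR FDR = 7.62e-06), and at 113 CPM in clone A2. Grk2, a kinase of agonist-bound receptors, was lower than in Lkb1-/- MEFs in both clones (−0.53 and −0.62, edgeR FDR = 1.09e-06 and 2.06e-07). Of 20 genes for G proteins and migration effectors of CXCR4, 17 were tested, and 7 were higher, 4 lower and 6 not called, with a median of 0.06, again beside 30.1% higher and 25.8% lower of all tested genes. Gnai1, an inhibitory G protein subunit, was at 0.0174 CPM in wild-type, 4.86 CPM in Lkb1-/- MEFs, 22.4 CPM in A1 and 34.2 CPM in A2. Rgs16, which shortens G protein signals, rose with IL-1β in wild-type (3.48, edgeR FDR = 3.53e-05) and Lkb1-/- MEFs (2.88, edgeR FDR = 3.55e-05).

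Heparan sulfate proteoglycans hold CXCL12 at the cell surface. Of 9 such genes 7 were tested, and in untreated Lkb1-/- against wild-type MEFs 5 were higher and 1 lower, beside 30.1% and 25.8% of all tested genes, the median being 0.86 on the log2 scale. Sdc3 was at 47.2 and 206 CPM (log2 2.12, SE 0.14, edgeR FDR = 7.15e-11). Gpc4 was lower in Lkb1-/- MEFs (−2.07, edgeR FDR = 1.99e-08) and went in opposite directions in the clones, 3.51 in A1 (edgeR FDR = 1.14e-10) and −4.80 in A2 (edgeR FDR = 2.86e-09). Sdc4 rose with IL-1β in wild-type (0.84, edgeR FDR = 5.77e-06) and Lkb1-/- MEFs (0.51, edgeR FDR = 0.00114). Of 5 other ligands of the CXCL12 receptors, 4 were tested and 3 were higher in untreated Lkb1-/- MEFs, beside the same 30.1%, among them adrenomedullin, Adm, at 0.164 and 0.562 CPM (log2 1.75, edgeR FDR = 0.0343).

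Across the 24 libraries, the genes whose log2 CPM followed each member most closely were found by Pearson correlation over 11355 genes with a mean log2 CPM above 1. All points share the 8 groups, so a high r mostly restates the group means, and r is given as a description. The nearest genes to Cxcl12 were Sfrp2 (r = 0.993), Fndc3c1 (0.991) and Tcf7 (0.991), and those to Ackr3 were Shox2, Zdhhc15 and 2510009E07Rik (each 0.996). Such neighbors were many, with 889 and 991 genes at r above 0.9, and Sfrp2 and Fndc3c1, near Cxcl12, had 0 counts in wild-type MEFs. Lhpp (0.987), B3galt1 (0.984) and Celsr1 (0.983) were nearest to Cxcl14. Cplane1 (0.930), Ep300 (0.922) and Galm (0.918) were nearest to Cxcr4. For Cxcl16 the nearest genes were Lrig1 (0.948), Tnfaip3 (0.946) and Nfkbia (0.940), with 8 genes at r above 0.9. Nmnat3 (0.907) was the only gene at r above 0.9 for Cx3cl1, followed by Ripk2 (0.850) and Serpina3e-ps (0.846). The names depended on the measure. By Spearman correlation 0 of the 3 nearest genes stayed for Ackr3, Cxcl14 and Cxcr4 and 1 for Cxcl12 and Cx3cl1. By the 8 group means 0 stayed for Cxcl12 and Cxcr4 and 1 for Ackr3, Cxcl14 and Cx3cl1. For Cxcl16, 3 and 2 stayed. Tnfaip3 and Nfkbia, inhibitors of NF-κB that NF-κB itself induces, were at 16.9 and 55.8 CPM in untreated wild-type MEFs and at 43.3 and 135 CPM with IL-1β. Among the members themselves, r was 0.967 between Cxcl12 and Cxcl14, 0.949 between Cxcl12 and Ackr3 and 0.845 between Cxcl16 and Cx3cl1, and 0.253 between Cxcl12 and Cx3cl1.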

How the data were processed

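Each of the 8 groups held 3 RNA-seq libraries. The authors trimmed the reads with Trim Galore 0.6.0 and aligned them with STAR 2.7.8a to GRCm38.p6 with GENCODE vM24, per the submitters' processing notes and the methods of the study. The counts used are the whole-number read counts per gene deposited by the authors, with no normalization. Of the count columns, the one that held 95.5% to 96.0% of the stranded read pairs was taken. Read pairs that named no gene (26.7% to 34.4% per library) stayed out of library sizes and tests.

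Genes were filtered with filterByExpr (minimum count 10, minimum total 15), scaled by TMM and fitted in edgeR 4.0.16 with a legacy quasi-likelihood model of the 8 groups over all 24 libraries. P-values were adjusted by Benjamini-Hochberg over the 17522 genes tested, at a threshold of 0.05, in each of 19 comparisons. SEs are Wald SEs on the log2 scale. CPM use TMM-scaled library sizes, and RPKM divide them by exon length. A detection limit of 3 counts per library gave fold bounds against groups at 0. Each bound is the mean CPM of the higher group over the mean limit and carries no error of that mean. The exact intervals of pooled counts cover counting error only, and the intervals of log2 fold changes come from the edgeR model. The scripts were tested on simulated data.

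No 2 libraries of a group agreed within sampling noise: chi-square per degree of freedom was 7.07 to 101.6 over 24 pairs within groups. Same-numbered libraries were treated as paired where their departures from their groups' means correlated above 0.1 for every number. This held between treatments within every genotype (0.130 to 0.589), for A2 against Lkb1-/- MEFs untreated, and with IL-1β for Lkb1-/- against wild-type, both clones against Lkb1-/- and A2 against A1. The pairing comes from the data and not from a stated design.

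The 6 genes and the lists were chosen with earlier results of these data known. In each list, up to 3 genes with the largest absolute log2 fold change among those called were named, in the comparisons of untreated genotypes and of IL-1β in wild-type and Lkb1-/- MEFs. Thy1, Lum, Cdh5, Ptprc and Adgre1 were chosen after their values were seen. Promoter windows are RefSeq's. Alternatives were DESeq2 1.42.0, other scalings and filters, counts from both strands, other fits and leaving out each library.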

Additional observations from a re-analysis of the deposited data

Results flagged for a closer look

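In the fit blocked by library number inside each genotype, 5 responses to IL-1β differed between a double-knockout clone and Lkb1-/- MEFs, by a test of the difference itself (edgeR). That fit called 1.52% of all tested genes in A1 against Lkb1-/- MEFs and 1.04% in A2 against Lkb1-/- MEFs. All 5 comparisons use the same Lkb1-/- libraries, and none was called in the unblocked fit with the filter on low counts. Without that filter, the unblocked fit called Cx3cl1 in A1 (0.64, edgeR FDR = 0.00296) and Ackr3 in A2 (−0.54, edgeR FDR = 0.00387), and no other alternative called any of the 5.

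In clone A1 against Lkb1-/- MEFs, the log2 response of Cxcl12 was higher by 0.35 (edgeR FDR = 0.00328), with treated to untreated ratios of 0.963 to 0.981 in A1 and 0.706 to 0.812 in Lkb1-/- MEFs. The response of Cx3cl1 was higher by 0.62 (edgeR FDR = 0.0194), with ratios of 1.84 to 3.02 and 1.26 to 1.69. The response of Ackr3 differed by −0.34 (edgeR FDR = 0.0193), with ratios of 0.748 to 0.868 and 0.954 to 1.09.

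In clone A2 against Lkb1-/- MEFs, the response of Cxcl12 differed by 0.28 (edgeR FDR = 0.0319) and that of Ackr3 by −0.59 (edgeR FDR = 9.30e-05), with A2 ratios of 0.828 to 0.980 for Cxcl12 and 0.614 to 0.717 for Ackr3.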

How the results depend on the processing

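Counts are of the 6 genes called, at FDR under 0.05. The share of all tested genes called may change with the setting and is given only where stated, so these counts describe the settings. Depth limits Cxcr4, at 0 to 25 counts per library. Over the alternatives that change 1 setting, 873 of 962 values kept their direction and their side of the threshold, 12 lost the call, 60 gained it and 17 turned; with 1 library left out, 672 of 756 kept both, 27 lost the call, 11 gained it and 46 turned. No value that turned was called. The causes were not tested.

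With upper quartile normalization, 5 genes were called in A2 against A1 untreated and 2 for IL-1β in wild-type MEFs, and DESeq2 also called 2 there. Without a filter on low counts the numbers were 5 and 2, with 4 in A2 against Lkb1-/- MEFs with IL-1β, 4 for IL-1β in A2, and 1 each for the response of A1 and of A2 against Lkb1-/- MEFs. In that fit the edgeR FDR fell at nearly unchanged values for Ackr3 in A1 against Lkb1-/- untreated (0.0999 to 5.42e-11). The same held for Cxcl12 with IL-1β in Lkb1-/- MEFs (0.553 to 0.000461). For Cxcr4 in A2 against A1 untreated the edgeR FDR rose (0.0166 to 0.0688). These calls describe the setting. Requiring 10 counts in every library left Cxcl12, Cxcl16 and Cx3cl1 to test, with these calls: 2 for Lkb1-/- against wild-type untreated and 2 with IL-1β, 1 for A2 against Lkb1-/- untreated, 3 for A1 against wild-type untreated and 3 with IL-1β, 2 for A2 against wild-type untreated and 1 with IL-1β, 3 for A1 against Lkb1-/- with IL-1β, and 2 for IL-1β in wild-type, where Cx3cl1 gained a call. With only the compared groups in the fit, 1 gene was called for IL-1β in A2.

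With the replicate number as a block over all 24 libraries, where the pairing did not hold for every comparison (correlations from 0.0355), 6 genes were called in A2 against A1 untreated, 4 in A2 against Lkb1-/- with IL-1β, 2 for IL-1β in wild-type and 5 for IL-1β in A2. For A2 against Lkb1-/- with IL-1β that fit called 46.6% of all tested genes. With the replicate block within genotype, 2 were called for IL-1β in wild-type and 6 in A2, and 3 and 2 for the responses of A1 and A2 against Lkb1-/- MEFs. That fit called 16.1% and 26% of all tested genes for IL-1β in wild-type and A2, and 1.52% and 1.04% for these responses. Where the pairing held, the blocks changed no call other than those given in the report.

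With 1 library left out, the count went from 2 to 4 in A2 against A1 untreated, from 1 to 2 for IL-1β in wild-type, from 1 to 2 for IL-1β in Lkb1-/- (3 with all libraries), from 2 to 3 for IL-1β in A2 and from 2 to 3 in A2 against Lkb1-/- with IL-1β.

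For Ackr3 with IL-1β in Lkb1-/- MEFs, the log2 values that turned were positive with median-of-ratios size factors, upper quartile, no filter, DESeq2 and both replicate blocks (0.00655, 0.0121, 0.00794, 0.00598, 0.0122 and 0.00753) and 0.0222 with only the compared groups. For the Cxcl12 response of Lkb1-/- against wild-type they were 0.0153 with counts from both strands, 0.0331, 0.0180, 0.0340 and 0.0310 with median-of-ratios, upper quartile, no filter and DESeq2, 0.0334 with 10 counts in every library, 0.000746 with the newer quasi-likelihood method and 0.0388 with only the compared groups. For Cx3cl1 in A2 against wild-type they were −0.0128 untreated with counts from both strands and 0.0122 with IL-1β and upper quartile.

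With 1 library left out, Cxcl12 ranged from −0.18 to 0.10 for IL-1β in A1, −0.31 to 0.18 in A2 and −0.22 to 0.17 for the response of Lkb1-/- against wild-type. Ackr3 ranged from −0.20 to 0.35 in A2 against Lkb1-/- untreated, −0.14 to 0.16 for IL-1β in Lkb1-/-, −1.15 to 0.93 in wild-type and −0.93 to 1.15 for their difference. Cxcr4 ranged from −0.71 to 0.26 in A1 against Lkb1-/- with IL-1β and −0.72 to 0.47 for IL-1β in Lkb1-/-. Cxcl14 ranged from −0.19 to 0.10 and −0.0676 to 0.17 for the responses of A1 and A2 against Lkb1-/-, and Cxcl16 from −0.0571 to 0.26 in A2 against Lkb1-/- untreated. Cx3cl1 ranged from −0.0623 to 0.26 in A2 against Lkb1-/- with IL-1β, −0.21 to 0.0461 and −0.10 to 0.11 in A2 against wild-type with and without IL-1β, and −0.27 to 0.0148 and −0.12 to 0.16 for the responses of A2 against Lkb1-/- and of Lkb1-/- against wild-type.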
